A study of Homo sapiens with 2 samples.

Results

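The genes examined were 10 that write, remove or read DNA methylation: the DNA methyltransferases DNMT1, DNMT3A and DNMT3B, the TET dioxygenases TET1, TET2 and TET3, the DNA glycosylases TDG and MBD4, and the methyl-CpG readers MBD2 and ZBTB33. They were chosen by gene symbol, and 10 of 10 were found among the 20985 genes of the deposited table. Expression was measured by sequencing polyadenylated RNA of HCC827, an established lung adenocarcinoma line with an activating EGFR mutation, and of HCC827 ZDR3, a derivative resistant to gefitinib, an inhibitor of the EGFR kinase. Both groups share the HCC827 background, the parental line being the one from which the resistant cells were made. The growth protocol describes low-serum medium for isotope labelling of proteins, without stating whether the sequenced cells were kept in it. For resistance, HCC827 cells were kept in gefitinib from 10 nM, for 1 month, with 3-fold steps each month up to 1 µM, and 3 colonies were picked. The labels do not say which colony ZDR3 is, nor whether the drug was present at harvest. Each group held 1 library, so nothing here has a replicate check and no p-value is given.

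DNA methylation in mammals sits mostly on cytosines of CpG dinucleotides and tends to keep promoters silent. DNMT1 copies the mark onto the new strand after replication, while DNMT3A and DNMT3B place it on unmethylated DNA. TET enzymes oxidise 5-methylcytosine, TDG cuts out the oxidised bases so that repair restores cytosine, and proteins such as MBD2 and ZBTB33 bind the methylated sites and bring in repressors.

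Gene reads numbered 257192607 in parental and 243549869 in resistant cells. Levels are in normalised reads, with a unit worth 143 reads in the first and 138 in the second. Log2 ratios are resistant over parental after adding 1 unit to both levels, and a gene that reaches a level of 1 in either library is called expressed. This held for 13777 genes, with a median log2 ratio of -0.03. The epithelial origin of the line was checked with 10 markers. Of these, 9 were expressed in the parental library. In resistant cells 8 passed 2-fold on the lower side, against 9.68% of all expressed genes. The lung lineage factor NKX2-1, at 95.0 and 9.33, was among the 8. Of the markers of other cell types, COL1A1 (9.15 and 1.76 units), CD14 (1.88 and 0.203) and CSF1R (1.83 and 0.763) reached a level of 1. By log2 ratio COL1A1 (-1.88) and CD14 (-1.26) passed 2-fold on the lower side, against 9.68% of all expressed genes, and CSF1R (-0.68) did not. CD14 and CSF1R reached a level of 1 in the parental library alone, so they had to be lower. The summed level of 6 leukocyte genes was 3.86 in parental and 1.34 in resistant cells, that of 6 fibroblast genes 9.33 and 1.90, and that of 4 endothelial genes 0.553 and 0.0945. CD3E, MS4A1 and COL3A1 had no reads in either library.

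The enzymes and readers had lower or near-equal levels in the resistant library. All 9 expressed members had log2 ratios below 0, though DNMT1 turned to 0.01 when ratios were centred on the median of all expressed genes. They ran from -0.82 for MBD4 to -0.03 for DNMT1, with a median of -0.58. Among all expressed genes 52.2% had a log2 ratio below 0. No member was at least 2-fold lower, against 9.68% of expressed genes, and no member was at least 2-fold higher, against 10.6%. At 1.5-fold, a size chosen after the values were seen, 4 of the 9 were lower (DNMT3A, TET2, MBD2 and MBD4), against 18.7% of expressed genes, and 0 were higher, against 18.8%. The differences were thus graded and moderate, and the DNMT1 difference was close to the median of all genes.

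**Figure D1:**
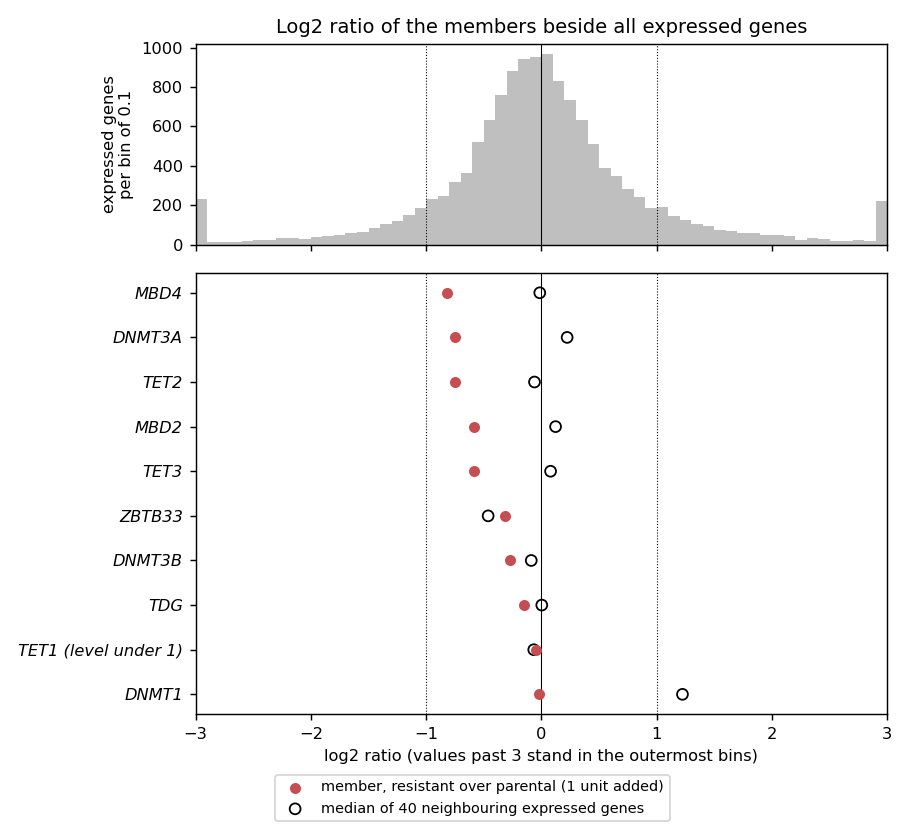
Upper panel: number of expressed genes (y axis) per bin of 0.1 of log2 ratio, resistant over parental, after adding 1 unit (x axis), with values past 3 in the outermost bins. Lower panel: log2 ratio of each member (filled points, 1 library per group) and the median of its 40 nearest expressed neighbours on the chromosome (open circles), with dotted lines at 2-fold. The members lie between 0 and the 2-fold line on the lower side, and the neighbours of DNMT1 alone have a median past 2-fold higher.

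The order of the genes was almost the same in both lines. Levels of different genes were compared per kb of annotated exon. In the parental library DNMT1 led at 148 units per kb, followed by MBD4 at 47.2, TDG at 18.4, DNMT3B at 13.7, ZBTB33 at 9.23, DNMT3A at 7.73, MBD2 at 7.16, TET2 at 2.51, TET3 at 1.61 and TET1 at 0.0633. In the resistant library the order differed in 1 place: MBD2, at 4.71 per kb, stood above DNMT3A, at 4.56. With the longest coding transcript as the length, DNMT3A stayed just above MBD2 in that library, at 5.15 against 5.12, so that pair cannot be ordered. The spread of these levels between cultures is unknown.

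**Figure D2:**
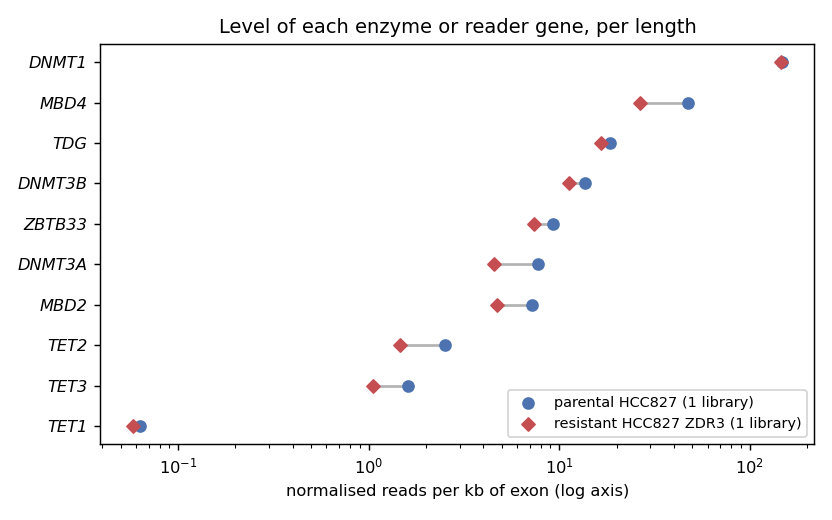
Level of each member in normalised reads per kb of exon (log axis), with circles for the parental and diamonds for the resistant library, 1 library each. DNMT1 lies at the top near 148 and 145, TET1 lies lowest at 0.0633 and 0.0579, and the gap between symbols is widest for MBD4, DNMT3A and TET2.

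The maintenance enzyme DNMT1 (ENSG00000130816, chromosome 19) was at 805 units in parental and 791 in resistant cells. The plain ratio was 0.983, and its exact 95% counting interval ran from 0.975 to 0.991. All such intervals concern counting error alone, take each read as independent and leave out the spread between cultures. Without molecular identifiers, duplicate reads of 1 molecule count more than once, so the intervals can be too narrow even for counting error. DNMT1 was the most abundant member by far, and its level hardly differed between the lines.

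The neighbours of DNMT1 on chromosome 19 were higher in the resistant library, and DNMT1 was not. Taking 20 expressed genes to either side, 38 of these 40 were higher, 29 at least 2-fold, against 10.6% of all expressed genes. ZNF846 (0.651 units in parental cells) and S1PR5 (0.245) reached a level of 1 only in resistant cells, where they had to be higher. Both are among the 38, and S1PR5 (log2 ratio 1.01) is among the 29. AP1M2 reached a level of 1 only in parental cells, so it had to be lower. The median log2 ratio of the 40 was 1.22. Directly beside DNMT1, the translation initiation factor gene EIF3G was at 121 units in parental and 242 in resistant cells, and the mitochondrial ribosome gene MRPL4 at 229 and 465. The adhesion receptor gene ICAM1 was at 248 and 669, and the kinase gene TYK2 at 244 and 719. These neighbours were named after their values were seen, and PPAN, P2RY11 and their read-through gene in this window share sequence. Of the 40, 38 had log2 ratios above that of DNMT1, and the exceptions were the zinc finger gene ZNF560 (-0.39) and the clathrin adaptor gene AP1M2 (-5.94). With the neighbours' median subtracted, the log2 ratio of DNMT1 was -1.25, and 6.37% of the 13476 expressed genes with a position had a lower value on that scale. DNA copy number was not measured, and its part in the neighbours' values was not tested.

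**Figure D3:**
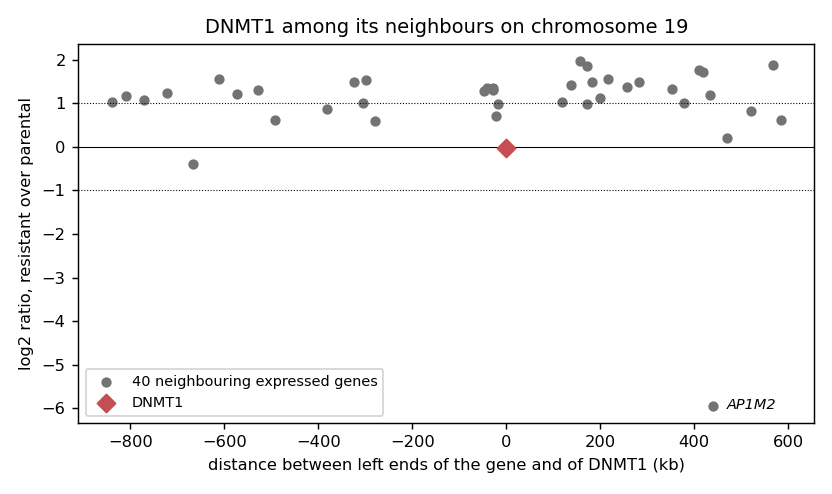
Log2 ratio, resistant over parental (y axis), of DNMT1 (diamond) and its 40 nearest expressed neighbours (points) against the distance between left gene ends in kb (x axis), with dotted lines at 2-fold. Points on both sides of DNMT1 lie near their median of 1.22, DNMT1 lies at -0.03, and AP1M2 is the low point at -5.94.

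The de novo enzymes were lower to unequal degrees. DNMT3A (ENSG00000119772, chromosome 2), which is guided in part by histone H3 marks, was at 83.0 and 48.9, a plain ratio of 0.589 with a counting interval of 0.572 to 0.607. DNMT3B (ENSG00000088305, chromosome 20), best known for methylating centromeric repeats, was at 63.4 and 52.2, a plain ratio of 0.823 with an interval of 0.798 to 0.849. Per kb, DNMT3A stood at 0.565 of DNMT3B in parental and 0.404 in resistant cells, so the balance between them shifted toward DNMT3B. Of the summed level per kb of the 3 methyltransferases, DNMT1 made up 87.3% in parental and 90.2% in resistant cells, DNMT3B 8.10% and 7.01%, and DNMT3A 4.58% and 2.83%. The neighbours of DNMT3A had a median log2 ratio of 0.22 and those of DNMT3B one of -0.09. DNMT3A was therefore further below its neighbours, by -0.97, than below 0.

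Of the TET enzymes, both expressed members were lower. TET2 (ENSG00000168769, chromosome 4), often mutated in blood cancers, was at 39.5 units in parental and 23.1 in resistant cells, a plain ratio of 0.585 with an interval of 0.560 to 0.611. TET3 (ENSG00000187605, chromosome 2), the form that acts on the paternal genome of the zygote, was at 18.5 and 12.1, a ratio of 0.651 with an interval of 0.612 to 0.692. TET1 (ENSG00000138336, chromosome 10), prominent in embryonic stem cells, had 84 and 74 reads, a level below 1 in both, and its interval of 0.660 to 1.27 takes in 1. A difference in TET1 was therefore not detectable at this depth. The summed level per kb of the 3 genes was 4.19 in parental and 2.58 in resistant cells, a ratio of 0.615, against 0.952 for the sum of the methyltransferases. The latter sum was mostly DNMT1 (87.3% in parental and 90.2% in resistant cells). The plain ratios of DNMT3A and DNMT3B were 0.589 and 0.823. TET2 supplied 59.9% and 57.0% of the TET sum, so its composition changed little. The neighbours of TET2 (-0.06) and TET3 (0.08) had medians near 0.

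Of the glycosylases, MBD4 was lower by more than TDG. MBD4 (ENSG00000129071, chromosome 3), which removes thymine or uracil left by deamination at CpG sites and also binds methylated DNA, was at 140 units in parental and 79.1 in resistant cells. Its plain ratio of 0.564, with an interval of 0.551 to 0.577, was the lowest of the 10 genes, and 12.7% of expressed genes had a lower log2 ratio than its -0.82. TDG (ENSG00000139372, chromosome 12), the glycosylase that completes TET-driven demethylation, was at 61.2 and 54.9, a ratio of 0.897 with an interval of 0.870 to 0.925. Per kb, MBD4 stood at 2.56 times TDG in parental and 1.61 times in resistant cells. The neighbours of MBD4 had a median log2 ratio of -0.01. The gene IFT122 on the opposite strand overlaps 4.84% of MBD4's exon length, and since the strand setting is not given in the sources used here, reads there cannot be told apart. IFT122 was at 190 and 165, a log2 ratio of -0.20. TDG has an annotated processed copy, TDGP1, and TET1 has TET1P1. Reads shared with them make both values less certain.

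Of the readers, MBD2 (ENSG00000134046, chromosome 18), which recruits the NuRD deacetylase complex to methylated DNA, was at 40.3 units in parental and 26.6 in resistant cells, a plain ratio of 0.658 with an interval of 0.631 to 0.686. ZBTB33 (ENSG00000177485, chromosome X), the gene of the zinc finger reader Kaiso, was at 49.0 and 39.1, a ratio of 0.798 with an interval of 0.770 to 0.827. The setting differs along the chromosomes: the neighbours of MBD2 had a median of 0.12, whereas 31 of the 40 neighbours of ZBTB33 were lower too, with a median of -0.46. With that median subtracted, ZBTB33 had a log2 ratio of 0.14 above its neighbours. With 5 neighbours on each side, a number chosen after seeing the data, ZBTB33 (0.11) and TDG (0.31) were above theirs.

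Promoter sequences of the 10 genes, from 250 bases before to 50 after the annotated start, were read from RefSeq on GRCh38.p14, which need not be the authors' build. Those of DNMT1, the member whose level hardly differed, and of DNMT3A and MBD4, with the lowest log2 ratios, are shown 5′ to 3′ with every CpG, the substrate of the enzymes themselves, in capitals.
DNMT1 promoter (chr19:10194904-10195203, minus strand): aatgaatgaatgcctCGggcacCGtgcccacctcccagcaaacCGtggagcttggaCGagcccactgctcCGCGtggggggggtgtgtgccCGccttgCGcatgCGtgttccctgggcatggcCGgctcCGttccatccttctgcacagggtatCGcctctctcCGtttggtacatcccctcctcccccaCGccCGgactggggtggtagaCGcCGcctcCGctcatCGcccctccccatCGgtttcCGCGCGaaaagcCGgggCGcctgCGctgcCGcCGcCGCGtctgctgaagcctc
DNMT3A promoter (chr2:25342434-25342733, minus strand): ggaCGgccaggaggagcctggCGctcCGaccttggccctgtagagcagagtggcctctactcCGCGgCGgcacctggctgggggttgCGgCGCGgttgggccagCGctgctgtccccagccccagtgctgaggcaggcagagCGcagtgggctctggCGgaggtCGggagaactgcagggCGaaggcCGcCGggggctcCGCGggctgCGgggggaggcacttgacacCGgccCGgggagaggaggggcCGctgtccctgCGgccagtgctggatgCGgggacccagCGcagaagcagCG
MBD4 promoter (chr3:129439899-129440198, minus strand): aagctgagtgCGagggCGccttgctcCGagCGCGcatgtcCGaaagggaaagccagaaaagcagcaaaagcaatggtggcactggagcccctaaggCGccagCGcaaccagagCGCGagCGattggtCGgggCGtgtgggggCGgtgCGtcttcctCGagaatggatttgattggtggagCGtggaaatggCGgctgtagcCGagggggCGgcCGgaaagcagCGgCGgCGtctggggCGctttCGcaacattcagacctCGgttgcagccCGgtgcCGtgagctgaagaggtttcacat
The DNMT1 sequence holds 30 CpG, that of DNMT3A 26 and that of MBD4 29, against a median of 14 over 27305 promoters of the same length. The window of TET2, with a log2 ratio of -0.75 like that of DNMT3A, held 13. Among the windows read, that of TET3 held the most CpG with 45, and that of DNMT3B the fewest with 3. These counts hold for the annotated start used, and other starts of the same genes were not examined. The AP-1 motif TGANTCA, searched because the series title names JUN, was in 0 of the 10, and in 7.76% of all promoters on either strand. The E2F motif TTTNNCGC, typical of replication genes, was in DNMT1 alone, on the reverse strand as GCGCGAAA across the annotated start, and in 6.90% of all promoters. A match is a string of letters and not a shown binding site.

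Partners of maintenance and targeting went both ways. Of 15 such genes 12 were expressed, and 0 passed 2-fold, against 10.6% of expressed genes upward and 9.68% downward. Their median log2 ratio was -0.08. UHRF2 (-0.70), a relative of the hemimethylated-DNA reader UHRF1, the histone methyltransferase gene EHMT2 (-0.62) and the replication clamp gene PCNA (-0.55) were lower, and the tRNA methyltransferase gene TRDMT1 (0.70) was higher. UHRF1, which guides DNMT1 to replicated DNA, was at 50.1 units in parental and 65.1 in resistant cells, and was named after its value was seen. DNMT3L, the cofactor of the de novo enzymes in germ cells, had 3 and 0 reads.

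Cofactors of the TET enzymes showed 1 large difference. IDH1, the cytosolic dehydrogenase that makes 2-oxoglutarate, the co-substrate of TETs, was at 791 units in parental and 160 in resistant cells, a plain ratio of 0.202 with an interval of 0.199 to 0.205. The mitochondrial form IDH2 was also lower, at 62.6 and 38.9. CXXC5, a CXXC-domain gene of the group that interacts with TET2, was higher at 14.4 and 31.4. Its log2 ratio of 1.07 became 0.91 with a pseudocount of 5, short of 2-fold. The ubiquitin protease gene USP9X had a log2 ratio of -0.19. Of the 7 expressed genes of this list, 1 passed 2-fold upward and 1 downward, against 10.6% and 9.68% of all expressed genes. The median log2 ratio was -0.05.

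Other readers and their co-repressors held genes on both sides of 0. The 10 other MBD-domain and methyl-CpG zinc finger genes had a median of -0.41, with 6 below 0, a share near the 52.2% of all expressed genes. Of the 10, 1 was past 2-fold downward, against 9.68% of all expressed genes. It was BAZ2B, at 121 units in parental and 34.4 in resistant cells. MBD5 (-0.66) and ZBTB4 (-0.72) were lower as well, while ZBTB38, a methyl-CpG-binding relative of Kaiso, was higher at 42.2 and 75.8. A list of 17 genes held co-repressors of the readers and the Kaiso-binding CTNND1. Of these 17, 11 were below 0, against 52.2% of all expressed genes, and the median was -0.32. There the NuRD histone chaperone gene RBBP7 was at least 2-fold higher, at 280 and 788, CHD3 (-0.86) was lower, and TBL1X (0.80), part of the N-CoR complex, was higher. CTNND1, the gene of p120 catenin, which binds Kaiso, was at 10633 and 5676, a plain ratio of 0.534.

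Genes of base excision repair, which fills the gaps left by TDG and MBD4, went both ways around a median of -0.02. All 14 were expressed, with 1 past 2-fold downward and 0 upward, against 9.68% and 10.6% of all expressed genes. The one past 2-fold was the glycosylase gene NEIL3, at 6.29 units in parental and 2.33 in resistant cells, and its log2 ratio of -1.13 became -0.62 with a pseudocount of 5, short of 2-fold. XRCC1 (-0.60) and SMUG1 (-0.51) were lower and the abasic-site nuclease gene APEX1 (0.38) higher. MBD4 (-0.82) lay below every gene of this list but NEIL3 (-1.13).

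Deaminases and GADD45 proteins were listed together, since deaminases can create the mismatches that TDG and MBD4 repair. The cytidine deaminase gene APOBEC3B, at 71.2 units in parental and 41.4 in resistant cells, and APOBEC3A (-0.62) were lower, and APOBEC3C (-0.23) and the demethylation-linked stress gene GADD45A (-0.26) differed less. Of the 6 expressed genes of this list 0 passed 2-fold in either direction, against 10.6% of all expressed genes upward and 9.68% downward. Their median was -0.25. APOBEC3 genes resemble each other in sequence, so reads can be shared among them.

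The methyl donor cycle supplies S-adenosylmethionine to the methyltransferases. Of 13 expressed genes 1 passed 2-fold upward and 4 downward, against 10.6% and 9.68% of all expressed genes. Their median log2 ratio was 0.07. NNMT, which spends methyl groups on nicotinamide, was at 187 units in parental and 759 in resistant cells. MTAP, which salvages methionine, was lower at 166 and 61.3, as were AHCYL1 (-1.39) and AHCYL2 (-1.33), relatives of the S-adenosylhomocysteine hydrolase. AHCY itself was at 308 and 350 and the synthase gene MAT2A at 234 and 364, both named after their values were seen.

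Replication genes were set beside the enzymes because DNMT1 works at the replication fork. Of 15 replication and proliferation genes 4 passed 2-fold downward and 0 upward, against 9.68% and 10.6% of all expressed genes. Their median was -0.23. The mitotic and G2 genes TOP2A (-1.88), CDK1 (-1.51), MKI67 (-1.34) and CCNB2 (-1.31) were lower. The replication genes of the list, named after their values were seen, ran from MCM7 (-0.59) and RRM2 (-0.69) on the lower side to TYMS (0.61) on the higher, with MCM2 at 222 units in both libraries. Whether a different share of cycling cells plays a part in the lower levels of the other members was not tested, and in bulk RNA fewer cells with a transcript and less transcript per cell cannot be told apart.

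Germline genes that promoter methylation is known to keep silent in body cells went both ways. Of 20 such genes 4 reached a level of 1 in parental cells, and 3 more did so only in resistant cells, where they had to be higher: BRDT, MAGEA3 and MAGEA6. The testis bromodomain gene BRDT had 95 reads in parental and 57832 in resistant cells. MAGEA3 had 67 and 1304 reads and MAGEA6 17 and 927, though these near-identical X-linked copies can share reads. DDX4, the germ cell RNA helicase gene, had 576 and 2 reads, a ratio of 0.00360 with an interval of 0.000436 to 0.0131, and STK31 (-2.10) was lower, named after its value was seen. The log2 ratio of DDX4 depends on the pseudocount, at -2.31 with 1, -5.17 with 0.1 and -0.85 with 5. DAZL, TDRD1, MAGEA4 and CTAG2 had no reads in either library. XAGE1A, named after its value was seen, was already at 557 units in parental cells and at 936 in resistant cells. Of the 7 expressed genes 3 passed 2-fold upward and 2 downward, against 10.6% and 9.68% of all expressed genes. With 2 of the 7 below 0, against 52.2% of all expressed genes, their median log2 ratio was 0.75. The 3 upward are the genes that had to be higher, and the median includes them. There was no common direction, and methylation of these promoters was not measured.

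Imprinted genes, whose parental copies differ in methylation, gave 9 expressed members of 19 found, with a median of 0.40. CDKN1C, a growth inhibitor expressed from the maternal copy, was at 11.0 units in parental and 33.7 in resistant cells, IGF2 at 4.37 and 8.78 and PEG10 at 25.3 and 47.4. PLAGL1, a zinc finger gene expressed from the paternal copy, had 623 and 21 reads, a ratio of 0.0350 with an interval of 0.0215 to 0.0540. At 1 unit added to both levels, 1 of the 9, CDKN1C, was past 2-fold higher, against 10.6% of all expressed genes. PLAGL1 was the 1 past 2-fold lower, against 9.68% of all expressed genes, and IGF2 was at 0.86. The log2 ratio of PLAGL1 was -2.22 with a pseudocount of 1, -4.14 with 0.1 and -0.86, short of 2-fold, with 5. H19, the neighbour of IGF2 that is expressed from the opposite copy, had 200 and 100 reads and was named after its value was seen.

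**Figure D4:**
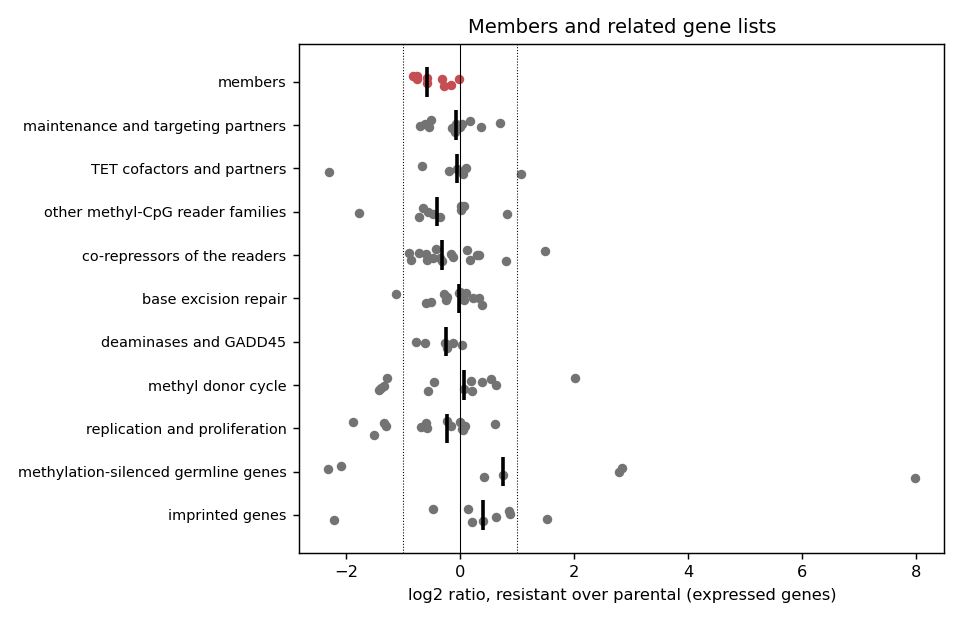
Log2 ratio, resistant over parental (x axis), of the expressed members (top row) and of the expressed genes of 10 related lists (1 point per gene, spread vertically for sight only), with the median of each as a vertical bar and dotted lines at 2-fold. The members lie between -0.82 and -0.03 around a median of -0.58, and the deaminase and GADD45 genes lie between -0.77 and 0.03. IDH1, NNMT and BRDT stand far out in their lists.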

How the data were processed

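Polyadenylated RNA of 1 parental and 1 resistant sample was read on the Illumina HiSeq platform, per the labels. The submitters' processing notes name TopHat without a version. The genome build, the counter and the strand setting were not given in the sources used here. In their deposit, the authors gave 1 log2 value per gene and library, in a table whose name says RPKM. Back-transformed, 100% of values for 1 to 100000 reads were whole multiples of 1 step per library, the same for every gene, within 0.1 read, so they are reads times 1 factor and not divided by length. Genes at the lowest value (0.9 of a read) were set to 0. The column ending in Prim was taken for the parental sample because only the other one names ZDR3.

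Log2 ratios used a pseudocount of 1 and a minimum level of 1, as laid out for RPKM. With 1 library per group no test was run. Intervals are exact 95% Clopper-Pearson. Gene lengths (union of exons of coding transcripts) and order came from GENCODE release 29 by Ensembl identifier, so no coordinates of the data are given. The genes named were the 10 members and up to 4 expressed genes of each of 10 lists with the largest absolute log2 ratio, besides those said to be named after their values were seen. A few genes of the lists are not reported here and were left out of their counts. Members and lists were chosen with earlier results of these data known. The fold calls were tested on simulated data. Python 3.11.15, pandas 2.3.3 and SciPy 1.17.1 were used.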

Additional observations from a re-analysis of the deposited data

How the results depend on the processing

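With 1 library per group no replicate could be left out, and the spread between cultures is unknown. No paired analysis was possible because each group has 1 library. Another pseudocount (0.1 or 5), a minimum level of 5 or none, scaling to the sum over all genes and centring on the median of expressed genes were tried. Under each of these 6 settings 0 members passed 2-fold in either direction. The members' median log2 ratio of -0.58 was -0.46 with a pseudocount of 5 and -0.45 without a minimum level, which adds TET1. With a pseudocount of 5, the expressed genes past 2-fold numbered 901 upward and 865 downward, in place of 1463 and 1333. Members at least 1.5-fold lower, a size chosen after seeing the data, numbered 3 to 5, since MBD2 and TET3 lie at that limit. The log2 ratio of DNMT1 changed sign in 1 of the 6 settings, and those of the other 9 genes and of the 40 genes named from the lists in none. Subtracting neighbours, a different quantity, put DNMT1 at -1.25 with 20 on each side and -1.35 with 5, and TDG at -0.16 and 0.31. The last number of neighbours was chosen after seeing the data. Depth limits TET1 alone among the members, and for the 9 others the counting interval reached at most 6.37% to either side.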
